A study of Mus musculus with 12 samples.

Results

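The genes examined here are 33 members of the ATF4 integrated stress and amino acid program, taken by gene symbol from the count tables of both cell states. All 33 members had a row in each table, among 35556 symbols for restimulated cells and 13948 symbols for cells sorted straight from co-culture, and all 33 had enough counts to be tested in both states. By role they are 6 transcription factors, 8 feedback and stress effectors, 7 enzymes of serine, glycine and folate metabolism, 5 other amino acid enzymes and 7 amino acid transporters. The rule used gene symbols and no measured value, but the members were chosen with earlier results of these data known.

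RNA was sequenced from OT-I CD8+ T cells of mouse spleen, which carry a transgenic T cell receptor for a chicken ovalbumin peptide. The cells of every group were expanded with IL-2 and antibodies against CD28 and CD3e, kept for 5 further days, and then held for 72 h at 1% O2 with GL261, a mouse glioma line, expressing ovalbumin. The ATRA restimulated group had 5 ng/mL all-trans retinoic acid, a vitamin A metabolite that binds nuclear receptors, in the expansion medium, and received anti-CD3e antibody for 24 h after the co-culture. The CTRL restimulated group had an equal volume of the solvent DMSO in place of ATRA and the same 24 h with anti-CD3e antibody. The ATRA co-culture group and the CTRL co-culture group had ATRA or DMSO during expansion and were sorted at the end of the co-culture. No ATRA was present during co-culture in any group, so the ATRA comparisons are about an exposure that had ended days earlier. Live CD45.2+ cells were sorted for each of the 12 libraries, 3 per group, and the sort gate as described holds no CD8 marker. Whether replicate libraries go back to different mice or cultures is not stated in the labels, and p-values therefore cover only the spread between these libraries, which may be technical.

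ATF4 is a basic leucine zipper transcription factor whose protein is made mainly by translational control. When one of several kinases phosphorylates the initiation factor eIF2, in response to amino acid lack, misfolded protein in the endoplasmic reticulum, viral RNA or haem lack, most translation slows while the Atf4 messenger is translated more. ATF4 then binds, with partners of the C/EBP family, to C/EBP-ATF response elements and raises genes for amino acid synthesis, amino acid uptake and feedback on the response itself. In activated T cells the same program is known to serve the amino acid supply for growth. RNA levels, as measured here, do not show how much ATF4 protein was present.

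The core of the response element, TGATGNAA, was looked for on both strands in the 250 bases upstream of the RefSeq transcription starts of mouse build GRCm38.p6, and it was found in 6 of the 29 members that had such a promoter entry (20.7%). It was found in 1056 of all 27025 genes with an entry (3.91%). The members without an entry were Slc7a5, Eif4ebp1, Slc1a5 and Cth. The 6 promoter stretches that hold the core are printed to show the element in its setting, and capitals mark the core, which reads as TGATGCAA or TGATGAAA on one strand and as TTGCATCA on the other.
Nupr1 (chr7:126625533-126625620, minus strand, GRCm38.p6): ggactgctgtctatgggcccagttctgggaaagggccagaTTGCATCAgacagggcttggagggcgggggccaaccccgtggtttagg
Asns (chr6:7693210-7693272, minus strand, GRCm38.p6): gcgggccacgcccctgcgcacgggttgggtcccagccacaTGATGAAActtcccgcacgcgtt
Chac1 (chr2:119351009-119351096, plus strand, GRCm38.p6): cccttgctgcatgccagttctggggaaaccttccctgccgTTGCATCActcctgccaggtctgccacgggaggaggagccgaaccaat
Pycr1 (chr11:120643804-120643891, minus strand, GRCm38.p6): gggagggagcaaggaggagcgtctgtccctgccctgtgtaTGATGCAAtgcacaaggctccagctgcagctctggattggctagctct
Slc7a11 (chr3:50443614-50443719, minus strand, GRCm38.p6): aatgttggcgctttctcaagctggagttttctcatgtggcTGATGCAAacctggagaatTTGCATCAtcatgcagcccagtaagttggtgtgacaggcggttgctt
Vldlr (chr19:27216780-27216867, plus strand, GRCm38.p6): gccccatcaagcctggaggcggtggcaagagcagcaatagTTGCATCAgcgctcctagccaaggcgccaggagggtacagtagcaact
The core begins 23 bases upstream of the start in Asns, 103 in Pycr1, 110 in Nupr1, 193 in Chac1 and 200 in Vldlr. Slc7a11 alone among the 29 holds it more than once, at 66 and 47 bases upstream, in opposite orientations and without overlap. A match is a description of the letters, and no binding was measured.

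The libraries held 16286775 to 20114121 counts after restimulation and 23558244 to 26111497 after co-culture, where 3 counts correspond to 0.110 to 0.183 CPM (counts divided by library size and multiplied by a constant), a limit that covers counting error only. Levels are CPM scaled by the TMM method within each table. Restimulated libraries carried batch labels apart from those of co-culture libraries and were deposited in another table, so state and batch set cannot be told apart. Among co-culture libraries, 2 stood apart from the others of their group: log CPM of CTRL replicate 1 correlated across genes at 0.978 and 0.9803 with the other two, which correlated at 0.994, and ATRA replicate 3 correlated at 0.948 and 0.962 with the other two, which correlated at 0.990. Restimulated libraries of the same group correlated at 0.976 to 0.984, so the values of CTRL replicate 1 were low only beside its own group. Summed over 9 markers of CD8 T cells, levels were 2502 to 2549 CPM in ATRA restimulated, 2144 to 2506 CPM in CTRL restimulated, 2629 to 3286 CPM in ATRA co-culture and 2315 to 3170 CPM in CTRL co-culture libraries, with 8 of the 9 present in the co-culture table. These are bulk samples, in which fewer cells of a type and less RNA per cell cannot be told apart.

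The comparison of ATRA with CTRL cells after restimulation asked how T cells once expanded with ATRA answer a new signal through CD3. Of the 33 members, 27 were higher and 2 lower in ATRA cells at an adjusted p under 0.05 in edgeR's quasi-likelihood test, and 4 were not called. Over all 12783 genes tested, 62.6% were called, 31.8% higher and 30.8% lower. The members' median log2 fold change was 1.51, beside 0.02 over all tested genes, and 20 of the 27 higher members differed by at least 2-fold. The 27 higher members were those whose 3 ATRA libraries all lay above the 3 CTRL libraries, a pattern found upward in 35.4% of all genes, and the 2 lower members were those with no overlap downward, found in 33.4%. Summed over the 33 members, levels were 4438 to 4556 CPM in ATRA libraries and 2361 to 2559 CPM in CTRL libraries.

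**Figure D1:**
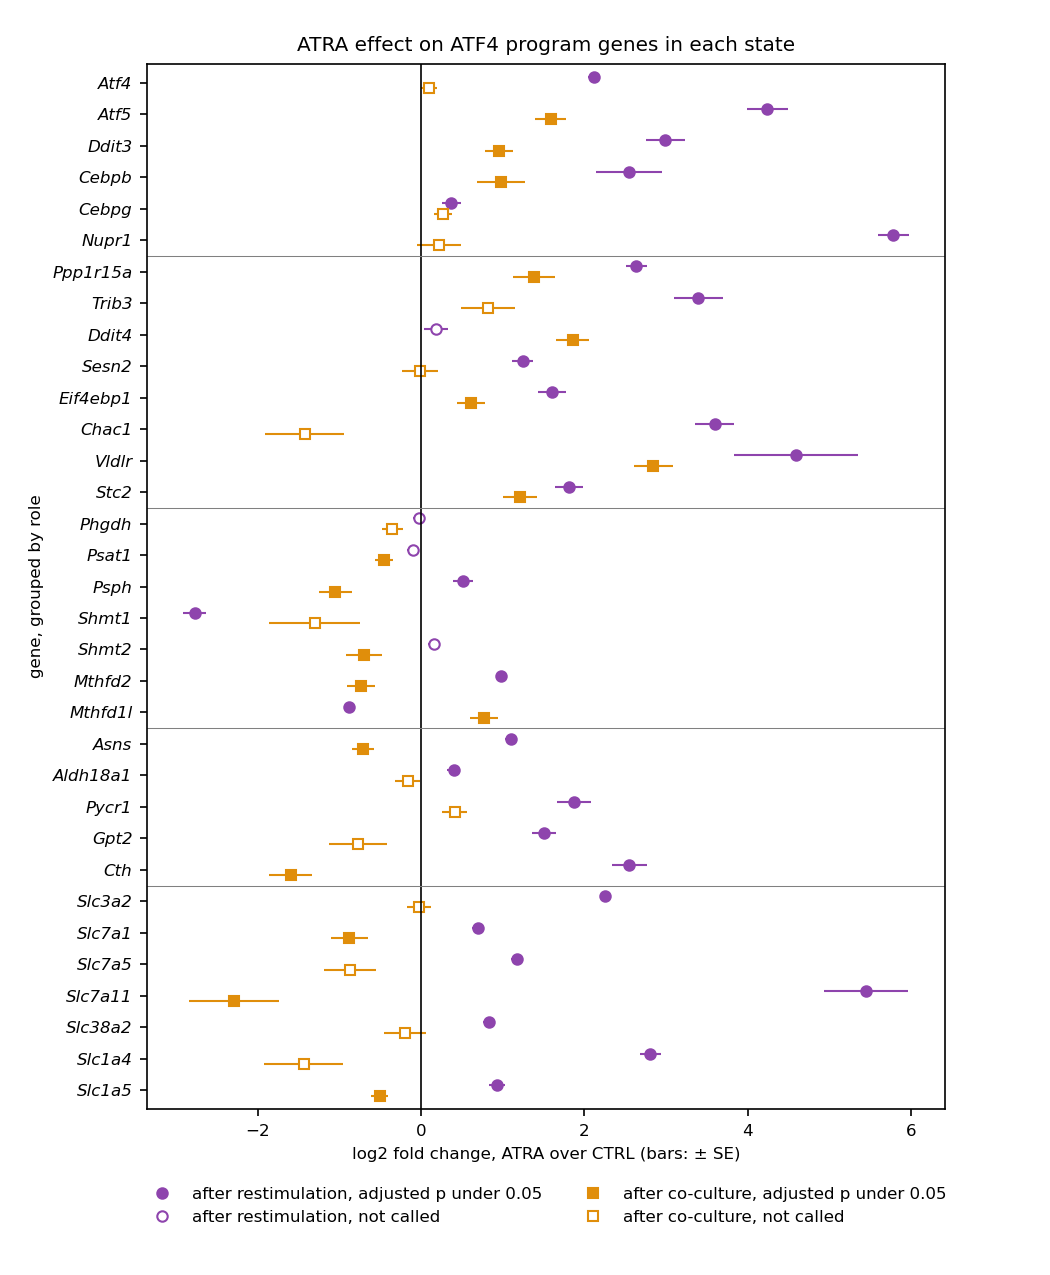
Log2 fold change of ATRA over CTRL cells (horizontal axis, bars ± SE) for each of the 33 members, ordered by role, after restimulation and after co-culture, with filled symbols for an adjusted p under 0.05. After restimulation 27 filled symbols lie right of 0 and 2 left of it, and after co-culture 9 lie on each side.

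All 6 transcription factors were higher in ATRA restimulated cells, with a median log2 fold change of 2.77. Atf4, the factor that names the program, had 544, 520.5 and 565 CPM in ATRA libraries, against 116, 127 and 134 CPM in CTRL libraries. Every ATRA library was thus far above every CTRL library, at a log2 fold change of 2.11 ± 0.07 (SE, adjusted p = 3.69e-10), or 4.32-fold. Nupr1, a small stress-induced chromatin-associated protein, had 35.1, 34.2 and 34.9 CPM in ATRA libraries, against 0.56, 0.49 and 0.81 CPM in CTRL libraries. CTRL cells thus held only traces of Nupr1 while the ATRA libraries agreed closely with each other, at 5.78 ± 0.19 on the log2 scale (SE, adjusted p = 2.4e-10). Atf5, a relative of ATF4 that is also under translational control, had 15.5, 16.4 and 15.5 CPM in ATRA libraries, against 0.79, 0.55 and 1.13 CPM in CTRL libraries (log2 fold change 4.24 ± 0.25, SE, adjusted p = 2.9e-08).

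Ddit3, which encodes the stress factor CHOP, had 14.2, 12.8 and 16.3 CPM in ATRA libraries, against 1.96, 1.22 and 2.20 CPM in CTRL libraries, without overlap (log2 fold change 2.99 ± 0.24, SE, adjusted p = 4.26e-07). Cebpb and Cebpg encode C/EBP family partners with which ATF4 forms dimers. Cebpb was at a low level, 3.58, 3.19 and 2.66 CPM in ATRA libraries and 0.34, 0.67 and 0.59 CPM in CTRL libraries (log2 fold change 2.55 ± 0.40, SE, adjusted p = 0.000138). Cebpg differed least of the 6 factors, with 33.7, 35.8 and 33.7 CPM in ATRA libraries and 29.0, 28.5 and 22.2 CPM in CTRL libraries. Its log2 fold change was 0.37 ± 0.12 (SE, adjusted p = 0.0172), and the adjusted p was 0.0618 without ATRA replicate 2 and 0.0609 without CTRL replicate 3.

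**Figure D2:**
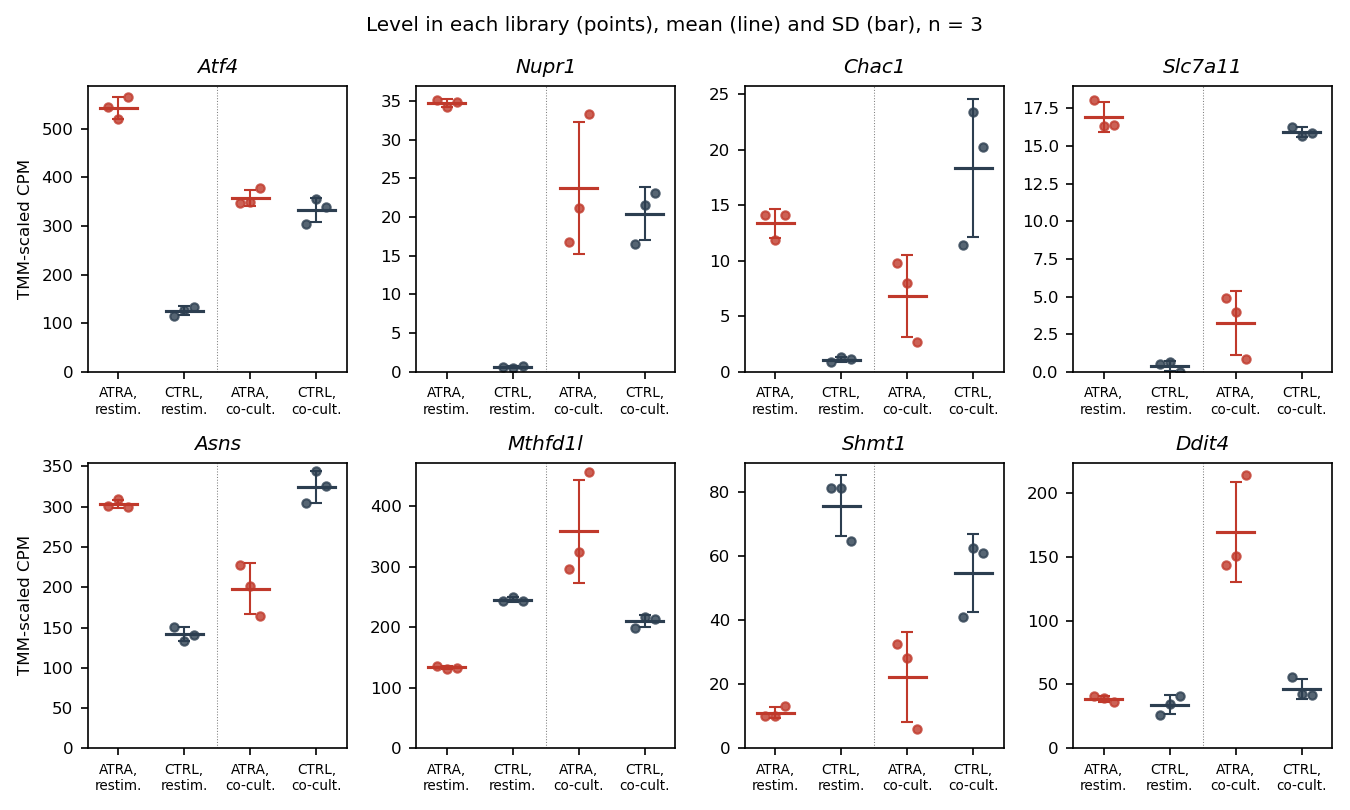
TMM-scaled CPM (vertical axis, from 0) of 8 members in every library (points), with the mean (line) and SD (bar) of the 3 libraries in each group, restimulated groups left of the dotted line and co-culture groups right of it. Nupr1, Chac1 and Slc7a11 were near 0 in CTRL restimulated cells and present in the other groups, while Mthfd1l was lower in ATRA than in CTRL cells after restimulation and higher after co-culture. CPM were scaled separately in each state.

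Of the 8 feedback and stress effectors, 7 were higher in ATRA restimulated cells and Ddit4 was not called, with a median log2 fold change of 2.22. Ppp1r15a, the subunit GADD34 that directs a phosphatase to eIF2 and so ends the response, had 69.2, 62.4 and 62.7 CPM in ATRA libraries, against 9.15, 9.78 and 12.3 CPM in CTRL libraries (log2 fold change 2.63 ± 0.13, SE, adjusted p = 5.93e-09). Trib3, a pseudokinase that dampens ATF4 and CHOP activity, had 15.7, 16.9 and 16.1 CPM in ATRA libraries, against 1.23, 0.86 and 2.47 CPM in CTRL libraries (3.39 ± 0.30 on the log2 scale, SE, adjusted p = 1.75e-06). Both feedback genes were low in every CTRL library and several-fold above them in every ATRA library. Chac1, an enzyme that breaks down glutathione, had 14.1, 11.9 and 14.1 CPM in ATRA libraries, against 0.84, 1.34 and 1.13 CPM in CTRL libraries (3.59 ± 0.24 on the log2 scale, SE, adjusted p = 7.77e-08). Chac1 levels were again tight within each group and did not overlap.

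Sesn2 and Eif4ebp1 act on growth signalling, the first as a leucine-sensing inhibitor of mTORC1 and the second as a repressor of cap-dependent translation. Sesn2 was higher by 1.24 ± 0.13 on the log2 scale (SE, adjusted p = 3.87e-06) and Eif4ebp1 by 1.60 ± 0.17 (SE, adjusted p = 6.08e-06). Stc2, a secreted glycoprotein, was higher by 1.81 ± 0.17 (SE, adjusted p = 1.82e-06). Vldlr, a lipoprotein receptor, had 2.30, 2.62 and 2.31 CPM in ATRA libraries, against no count in 2 CTRL libraries and 5 counts in the third. Its log2 fold change of 4.58 ± 0.76 (SE, adjusted p = 0.000211) rests on those 5 counts, since without CTRL replicate 3 no count was left in CTRL cells and the fit returned 8.46, a value set by the model's prior and no measure of size. Ddit4, the mTORC1 inhibitor REDD1 that hypoxia and glucocorticoids also raise, had 41.0, 39.1 and 35.9 CPM in ATRA libraries and 26.4, 34.7 and 41.2 CPM in CTRL libraries. These groups overlapped and Ddit4 did not pass the test (0.18 ± 0.15, SE, adjusted p = 0.304), although it did without CTRL replicate 3 (0.33, adjusted p = 0.0481).

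The serine, glycine and folate enzymes split after restimulation, with 2 of 7 higher, 2 lower and 3 not called, and a median log2 fold change of -0.02. Mthfd2, the mitochondrial methylene-tetrahydrofolate dehydrogenase, had 192, 190.3 and 208 CPM in ATRA libraries, against 95.9, 106.9 and 95.5 CPM in CTRL libraries (0.99 ± 0.07 on the log2 scale, SE, adjusted p = 2.15e-07). Psph, which carries out the last step of serine synthesis, was higher by 0.52 ± 0.12 (SE, adjusted p = 0.00274), with 43.3, 46.2 and 43.6 CPM in ATRA libraries and 36.4, 30.2 and 26.4 CPM in CTRL libraries. Psph and Mthfd2 did not overlap between groups, but the steps before and beside them behaved otherwise. Phgdh, the enzyme of the first step of serine synthesis, had 340.4, 325 and 337 CPM in ATRA libraries and 311, 376 and 333 CPM in CTRL libraries, which overlapped (-0.02 ± 0.07, SE, adjusted p = 0.795). Psat1, the aminotransferase of the second step, was at -0.10 ± 0.07 (SE, adjusted p = 0.269) and Shmt2, the mitochondrial serine hydroxymethyltransferase, at 0.16 ± 0.07 (SE, adjusted p = 0.0746). Shmt2 passed without CTRL replicate 2 (0.20, adjusted p = 0.0401) and with limma on the deposited TPM (0.34, adjusted p = 0.00465).

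Both lower members belong to folate metabolism. Shmt1, the cytosolic serine hydroxymethyltransferase, had 10.1, 10.1 and 13.2 CPM in ATRA libraries, against 81.4, 81.3 and 64.8 CPM in CTRL libraries. Its log2 fold change was -2.77 ± 0.14 (SE, adjusted p = 8.47e-09), or 6.81-fold lower in ATRA cells. Mthfd1l, the mitochondrial enzyme that releases formate from formyl-tetrahydrofolate, had 136, 132 and 134 CPM in ATRA libraries, against 244, 250.04 and 244 CPM in CTRL libraries (-0.88 ± 0.06, SE, adjusted p = 1.14e-07). In both genes the libraries of each group agreed closely and the groups were far apart.

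All 5 other amino acid enzymes were higher, with a median log2 fold change of 1.51. Asns, which makes asparagine and is a textbook ATF4 target, had 302, 309.5 and 300.05 CPM in ATRA libraries, against 151, 133 and 141 CPM in CTRL libraries. ATRA cells held 2.14-fold as much (log2 fold change 1.099 ± 0.07, SE, adjusted p = 4.04e-08). Cth, the last enzyme of the route that makes cysteine from methionine, had 15.7, 17.3 and 12.0 CPM in ATRA libraries, against 2.92, 2.38 and 2.37 CPM in CTRL libraries (2.55 ± 0.21 on the log2 scale, SE, adjusted p = 6.04e-07). Pycr1, the last enzyme of proline synthesis, was higher by 1.88 ± 0.21 (SE, adjusted p = 7.45e-06) and Gpt2, the mitochondrial alanine aminotransferase, by 1.51 ± 0.15 (SE, adjusted p = 2.69e-06). Aldh18a1, which opens the proline route, moved least, with 182, 179 and 177 CPM in ATRA libraries and 138, 148 and 122 CPM in CTRL libraries (0.40 ± 0.08, SE, adjusted p = 0.000657).

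All 7 transporters were higher in ATRA restimulated cells, with a median log2 fold change of 1.17. Slc3a2, the CD98 heavy chain that carries several light chains to the membrane, had 853, 804 and 844 CPM in ATRA libraries, against 171, 182 and 173 CPM in CTRL libraries (2.25 ± 0.06 on the log2 scale, SE, adjusted p = 7.99e-11). Its light chain partner Slc7a5, the leucine transporter LAT1, had 373, 371.5 and 371 CPM in ATRA libraries, against 156, 175 and 165 CPM in CTRL libraries (1.17 ± 0.06, SE, adjusted p = 1.72e-08). Slc7a11, the cystine-importing partner of Slc3a2, had 18.1, 16.3 and 16.4 CPM in ATRA libraries, against 0.51, 0.67 and 0.00 CPM in CTRL libraries. CTRL libraries thus held between 0 and 11 counts of Slc7a11, and its log2 fold change of 5.45 ± 0.51 (SE, adjusted p = 1.71e-05) was 6.05 without CTRL replicate 2 and 4.83 without CTRL replicate 3.

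Slc1a4, a carrier of alanine, serine and cysteine, had 30.4, 31.6 and 30.9 CPM in ATRA libraries, against 4.21, 4.40 and 4.62 CPM in CTRL libraries (2.81 ± 0.13 on the log2 scale, SE, adjusted p = 4e-09). The related glutamine carrier Slc1a5 was higher by 0.93 ± 0.10 (SE, adjusted p = 8.99e-06). The neutral amino acid carrier Slc38a2 was higher by 0.83 ± 0.07 (SE, adjusted p = 5.89e-07) and the cationic amino acid carrier Slc7a1 by 0.69 ± 0.06 (SE, adjusted p = 1.55e-06). None of the 7 transporters overlapped between the groups.

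Marker sums of other cells were compared in the same libraries. Summed over 14 GL261 or glioma markers, levels were 83.1 to 90.3 CPM in ATRA and 88.9 to 98.2 CPM in CTRL restimulated libraries, with 6 of the 14 at 0 in ATRA and 4 in CTRL libraries. Of the 5 glioma markers with enough counts to be tested, Tnc (2.92 on the log2 scale), Loxl2 (1.12) and Col4a1 (no count in CTRL libraries) were higher in ATRA cells, Igfbp7 (-3.40) was lower and Axl (0.10) was not called. Summed over 8 myeloid markers, levels were 91.5 to 92.2 CPM in ATRA and 29.9 to 69.0 CPM in CTRL libraries. Itgax averaged 68.0 CPM in ATRA and 29.5 CPM in CTRL libraries and Cd68 22.4 CPM in ATRA and 12.7 CPM in CTRL libraries, and Csf1r was at 0 in both. Of the 3 myeloid markers with enough counts to be tested, 1 was called higher in ATRA cells and 2 were not called. Summed over 6 B cell markers, levels were 13.7 to 14.1 CPM in ATRA and 4.15 to 5.27 CPM in CTRL libraries, where 3 of the 6 were at 0. All 5 B cell markers with enough counts to be tested were called higher in ATRA cells. Their median log2 fold change was 4.25, a size that rests partly on markers at 0 in CTRL libraries. The sums over 4 natural killer cell markers were 20.8 to 25.8 CPM in ATRA and 12.8 to 27.0 CPM in CTRL libraries, over 4 CD4 T cell markers 23.7 to 26.5 CPM in ATRA and 19.2 to 25.0 CPM in CTRL libraries, and over 6 erythroid markers at most 1.05 CPM. Of 3 natural killer cell markers tested 1 was called lower, and neither of the 2 CD4 T cell markers tested was called. The part of the glioma, myeloid and B cell marker differences in the members' results was not tested.

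Levels of different members can be set beside each other only per transcript length, for which the authors deposited TPM (read abundance per transcript length, scaled to a fixed total) of the restimulated libraries. By mean TPM, the most abundant member in ATRA cells was Slc3a2, at 708 ± 4.49 TPM in ATRA and 150.5 ± 0.462 TPM in CTRL libraries (SD, n = 3 each). Atf4 came next, at 431 ± 15.99 TPM in ATRA and 96.3 ± 5.88 TPM in CTRL libraries. Phgdh stood at 311 ± 16.96 TPM in ATRA and 306 ± 14.7 TPM in CTRL libraries, the third highest member in ATRA cells and the highest in CTRL cells. The order of the top members thus differed between the groups, since Atf4 ranked 2 of 33 in ATRA and 11 of 33 in CTRL cells and Shmt1 ranked 22 in ATRA and 3 in CTRL cells.

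Slc7a5 followed in ATRA cells, at 285 ± 28.6 TPM in ATRA and 141 ± 8.44 TPM in CTRL libraries, and then Slc1a5, at 236 ± 12.3 TPM in ATRA and 138 ± 16.2 TPM in CTRL libraries (SD, n = 3 each). Mthfd2 stood at 212 ± 7.04 TPM in ATRA and 113 ± 10.6 TPM in CTRL libraries, and Asns at 200.2 ± 18.0 TPM in ATRA and 104 ± 4.96 TPM in CTRL libraries (SD, n = 3 each). Among ATRA libraries the values of Phgdh and Slc7a5 overlapped, as did those of Mthfd2 and Asns, whereas Slc3a2, Atf4 and Slc1a5 lay apart from their neighbours in this order. At the low end, Slc7a11 was at 8.05 ± 1.81 TPM (SD, n = 3) in ATRA cells and at 0 to 0.295 TPM in CTRL cells, and Vldlr at 0.925 ± 0.139 TPM (SD, n = 3) in ATRA cells and at 0 to 0.423 TPM in CTRL cells. The program thus held a few abundant transporter, enzyme and Atf4 transcripts and many members that CTRL cells expressed at a few TPM or less.

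**Figure D3:**
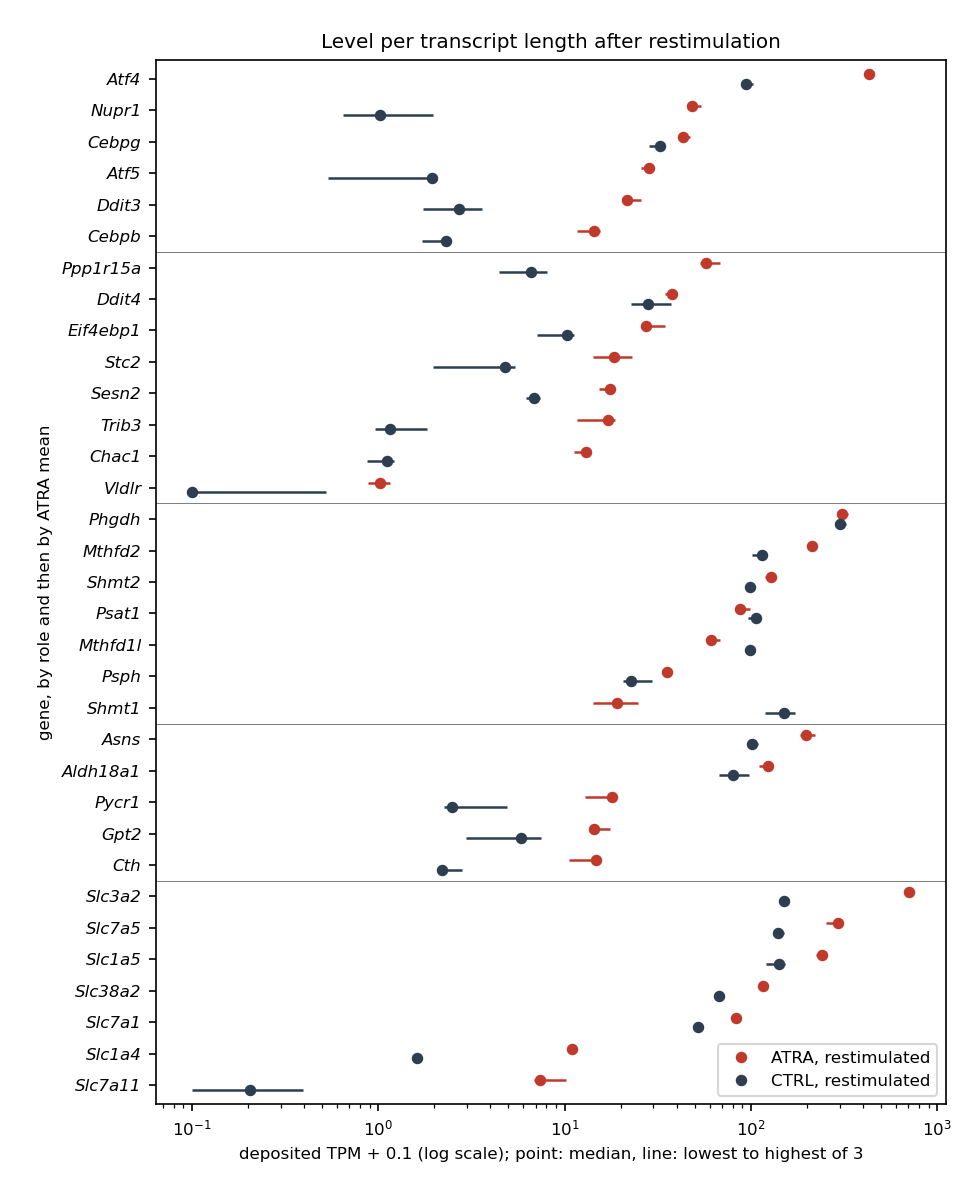
Deposited TPM + 0.1 (horizontal axis, log scale) of the 33 members in ATRA and CTRL restimulated cells, with the median as a point and the lowest to highest of 3 libraries as a line, ordered by role and ATRA mean. Atf4, Slc3a2 and the low members such as Nupr1 and Slc7a11 lie further right in ATRA cells, while Phgdh lies at the same place in both groups and Shmt1 lies further left in ATRA cells.

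The comparison of ATRA with CTRL cells at the end of co-culture asked whether prior ATRA altered the cells before any restimulation. Here 9 of the 33 members were higher in ATRA cells, 9 were lower and 15 were not called, against 33.6% of all 12111 genes called, 18.1% higher and 15.5% lower. The median log2 fold change was -0.16, beside 0.01 over all genes. By role, 3 of 6 transcription factors and 5 of 8 effectors were higher and none lower, while 4 of 7 serine, glycine and folate enzymes, 2 of 5 other enzymes and 3 of 7 transporters were lower and only Mthfd1l among these 19 was higher. Groups did not overlap for 11 members upward and 14 downward, a pattern found in 28.4% and 28.7% of all genes. Summed levels of all members overlapped between the groups, at 3842 to 3935 CPM in ATRA and 3695 to 4815 CPM in CTRL libraries.

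This comparison leans on single libraries more than that after restimulation. CTRL replicate 1, one of the 2 libraries that stood apart, was the lowest CTRL library for 30 of the 33 members, and ATRA replicate 3, the other, was the lowest ATRA library for 19 and the highest for 13. Without both, 11 members were called higher and 18 lower, while the genes called in all numbered 7980, against 4071 with every library. The members then called in addition were Trib3 (0.79) and Pycr1 (0.41), higher, and Chac1 (-1.29), Slc1a4 (-1.15), Shmt1 (-1.02), Slc7a5 (-0.79), Gpt2 (-0.75), Slc38a2 (-0.62), Phgdh (-0.37), Slc3a2 (-0.23) and Aldh18a1 (-0.12), lower, at adjusted p values of 3.94e-08 to 0.0336. Because the 2 libraries were picked for lying apart from their own groups, leaving out both narrows the spread within groups. The p-values of that fit are smaller for this reason, and its added calls, here and below, are no independent support. Left out singly, CTRL replicate 3 left 2 lower members and 1613 genes in all, CTRL replicate 2 left 3 and 1772, and ATRA replicate 2 left 4 and 2226. Calls that stayed under every alternative were those of Atf5, Ddit3, Ppp1r15a, Ddit4, Vldlr and Stc2, all higher, and of Asns and Cth, both lower.

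Among the transcription factors, Atf5 had 18.7, 17.2 and 18.7 CPM in ATRA co-culture libraries, against 4.61, 6.85 and 6.69 CPM in CTRL co-culture libraries (log2 fold change 1.59 ± 0.19, SE, adjusted p = 0.00245). Ddit3 had 23.4, 26.4 and 27.3 CPM in ATRA libraries, against 10.4, 14.9 and 14.3 CPM in CTRL libraries (0.96 ± 0.17, SE, adjusted p = 0.00878). Both were higher in each ATRA library than in any CTRL library. Atf4 itself had 347, 349 and 377 CPM in ATRA libraries and 305, 355 and 339 CPM in CTRL libraries, and Nupr1 had 16.8, 21.2 and 33.3 CPM in ATRA libraries and 16.6, 21.6 and 23.1 CPM in CTRL libraries. Both overlapped and neither passed the test, Atf4 at 0.10 ± 0.10 (SE, adjusted p = 0.432) and Nupr1 at 0.22 ± 0.27 (SE, adjusted p = 0.55). Cebpb was higher by 0.98 ± 0.29 (SE, adjusted p = 0.0411), a call lost without any 1 of the CTRL libraries or ATRA replicate 2 or 3, at adjusted p values of 0.0538 to 0.105. Cebpg was not called (0.27 ± 0.11, SE, adjusted p = 0.103).

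Of the effectors, Vldlr had 62.8, 62.6 and 78.6 CPM in ATRA co-culture libraries, against 12.5, 8.87 and 7.02 CPM in CTRL libraries, or 7.18-fold as much (log2 fold change 2.84 ± 0.24, SE, adjusted p = 0.00084). Ddit4 had 143, 151 and 214 CPM in ATRA libraries, against 55.7, 42.6 and 42.0 CPM in CTRL libraries (1.86 ± 0.20, SE, adjusted p = 0.00177). Stc2 had 102, 103 and 137 CPM in ATRA libraries, against 36.4, 56.3 and 55.0 CPM in CTRL libraries (1.21 ± 0.21, SE, adjusted p = 0.0079). All 3 were highest in ATRA replicate 3 and without overlap between the groups. Ppp1r15a was higher by 1.39 ± 0.26 (SE, adjusted p = 0.00996), with 50.02, 59.1 and 95.1 CPM in ATRA libraries and 22.4, 25.5 and 30.2 CPM in CTRL libraries. Eif4ebp1 was higher by 0.61 ± 0.17 (SE, adjusted p = 0.0329), a call lost without any 1 CTRL library or ATRA replicate 2, at adjusted p values of 0.066 to 0.0918.

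Trib3, Sesn2 and Chac1 were not called after co-culture. Trib3 had 45.85, 42.2 and 24.8 CPM in ATRA libraries and 13.01, 25.6 and 25.5 CPM in CTRL libraries. Its log2 fold change of 0.82 ± 0.33 (SE, adjusted p = 0.0972) passed without ATRA replicate 3 (1.04, adjusted p = 0.0289). Chac1 had 9.79, 7.95 and 2.72 CPM in ATRA libraries and 11.4, 23.3 and 20.2 CPM in CTRL libraries, without overlap and opposite in sign to its difference after restimulation. Its log2 fold change of -1.42 ± 0.49 (SE, adjusted p = 0.0621) passed without ATRA replicate 3 (-1.05, adjusted p = 0.0351) and in DESeq2 (adjusted p = 0.0103). Sesn2 was at -0.01 ± 0.22 (SE, adjusted p = 0.969).

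The synthesis enzymes leaned downward in ATRA co-culture cells. Cth had 48.5, 50.8 and 28.5 CPM in ATRA libraries, against 97.2, 148 and 141 CPM in CTRL libraries (log2 fold change -1.59 ± 0.26, SE, adjusted p = 0.0068). Asns had 228, 202 and 165 CPM in ATRA libraries, against 305, 344 and 325 CPM in CTRL libraries (-0.71 ± 0.14, SE, adjusted p = 0.0107). Both were lower in every ATRA library than in any CTRL library, the opposite of the order after restimulation. Psph was lower at -1.05 ± 0.20 (SE, adjusted p = 0.011, and 0.0506 without CTRL replicate 3), Mthfd2 at -0.74 ± 0.17 (SE, adjusted p = 0.02), Psat1 at -0.45 ± 0.11 (SE, adjusted p = 0.0241) and Shmt2 at -0.70 ± 0.22 (SE, adjusted p = 0.0481). The calls of Mthfd2 and Psat1 were lost without replicate 2 or 3 of CTRL or replicate 2 of ATRA, at adjusted p values of 0.0505 to 0.0815 and of 0.081 to 0.102. That of Shmt2 was lost without any 1 library other than CTRL replicate 1, at 0.0569 to 0.154. With the replicate number as a block, Psat1 had an adjusted p of 0.0646 and Shmt2 of 0.0947.

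Mthfd1l was the exception among the enzymes, with 297, 324 and 456 CPM in ATRA co-culture libraries, against 199, 217 and 214 CPM in CTRL libraries (0.77 ± 0.17 on the log2 scale, SE, adjusted p = 0.0168, and 0.053 to 0.0668 without any 1 CTRL library). Phgdh (-0.35 ± 0.13, SE, adjusted p = 0.0749) passed without CTRL replicate 1 (-0.44, adjusted p = 0.0395) and in DESeq2 (adjusted p = 0.0471). Shmt1 had 32.6, 28.1 and 6.13 CPM in ATRA libraries and 40.9, 62.7 and 60.9 CPM in CTRL libraries. It lay lower in each ATRA library, and its log2 fold change of -1.30 ± 0.55 (SE, adjusted p = 0.11) passed without ATRA replicate 3 (-0.86, adjusted p = 0.0136) and in DESeq2 (adjusted p = 0.0344). Aldh18a1 (-0.16, adjusted p = 0.424), Gpt2 (-0.77, adjusted p = 0.133) and Pycr1 (0.42, adjusted p = 0.0756) were not called, and Pycr1 passed without ATRA replicate 3 (adjusted p = 0.0275). Without both libraries that stood apart, Gpt2 (-0.75, adjusted p = 2.05e-07) and Aldh18a1 (-0.12, adjusted p = 0.0336) passed as well.

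No transporter was called higher in ATRA co-culture cells. Slc7a11 had 4.91, 4.00 and 0.82 CPM in ATRA libraries, against 16.3, 15.6 and 15.9 CPM in CTRL libraries (log2 fold change -2.29 ± 0.55, SE, adjusted p = 0.022). The groups were far apart, yet the call was lost without any 1 CTRL library or ATRA replicate 2, at adjusted p values of 0.0581 to 0.072. Slc7a1 was lower at -0.88 ± 0.23 (SE, adjusted p = 0.0272, and 0.0725 to 0.0965 without replicate 2 or 3 of CTRL or replicate 2 of ATRA) and Slc1a5 at -0.50 ± 0.10 (SE, adjusted p = 0.0133, and 0.0633 without CTRL replicate 2 or 0.0612 without CTRL replicate 3). Slc1a4 had 17.6, 14.9 and 4.10 CPM in ATRA libraries and 26.7, 37.6 and 34.8 CPM in CTRL libraries. It was not called (-1.44 ± 0.49, SE, adjusted p = 0.0605) but passed without ATRA replicate 1 (-1.80, adjusted p = 0.0469), without ATRA replicate 3 (-1.03, adjusted p = 0.00372) and in DESeq2 (adjusted p = 0.00855). Slc7a5 was at -0.87 ± 0.32 (SE, adjusted p = 0.0773, and 0.0247 in DESeq2), Slc38a2 at -0.19 ± 0.26 (SE, adjusted p = 0.582) and Slc3a2 at -0.03 ± 0.15 (SE, adjusted p = 0.903). Without both libraries that stood apart, Slc38a2 was called lower at -0.62 (adjusted p = 4.57e-07) and Slc3a2 at -0.23 (adjusted p = 0.000306).

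In the co-culture libraries, marker sums of other cells were 72.4 to 88.3 CPM in ATRA and 126 to 164 CPM in CTRL libraries for glioma cells (9 of 14 markers in the table), mostly Axl, at a mean of 46.5 CPM in ATRA and 106.5 CPM in CTRL libraries, and Igfbp7, at 0.50 CPM in ATRA and 29.7 CPM in CTRL libraries. The sums were 25.2 to 26.3 CPM in ATRA and 14.96 to 15.9 CPM in CTRL libraries for myeloid cells (5 of 8), and 4.87 to 10.4 CPM in ATRA and 7.19 to 16.6 CPM in CTRL libraries for B cells (5 of 6). They were 9.67 to 11.4 CPM in ATRA and 32.4 to 42.2 CPM in CTRL libraries for natural killer cells (3 of 4), and 74.4 to 77.6 CPM in ATRA and 40.7 to 46.5 CPM in CTRL libraries for CD4 T cells (4 of 4), of which Zbtb7b made up most. Of 4 glioma markers tested, 1 was called higher in ATRA cells and 3 lower. Of 4 CD4 T cell markers, 1 was called higher and 1 lower, and of 4 myeloid markers 2 higher and 1 lower. Of 2 B cell markers, 1 was called higher and 1 lower, and of 3 natural killer cell markers 2 lower and none higher. No marker in the table was at 0 in all libraries of a group. The part of these differences in the members' results was not tested.

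Whether the ATRA effect differed between the states was tested as an interaction over all 12 libraries. The ATRA effect was higher after restimulation than after co-culture for 26 of 33 members and lower for 2, against 49.2% of all 12364 genes called, 23.6% higher and 25.5% lower. The median difference was 1.57 on the log2 scale, beside -0.07 over all genes. It was higher for 5 of 6 transcription factors, 5 of 8 effectors, 4 of 7 serine, glycine and folate enzymes, all 5 other enzymes and all 7 transporters. The largest differences were those of Slc7a11 (7.74 ± 0.88), Nupr1 (5.56 ± 0.39), Chac1 (5.02 ± 0.59), Slc1a4 (4.25 ± 0.54) and Cth (4.14 ± 0.34, all SE), at adjusted p values of 2.9e-05, 5.51e-07, 3.25e-05, 6.56e-05 and 2.01e-06. The Slc7a11 value was 8.36 without CTRL restimulated replicate 2 and 7.13 without CTRL restimulated replicate 3, since the CTRL counts behind it were between 0 and 11.

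The members fell into several patterns by their calls in the ATRA comparisons. Atf5, Ddit3, Cebpb, Ppp1r15a and Eif4ebp1 were higher in ATRA cells in both states, and more so after restimulation. The co-culture calls of Cebpb and Eif4ebp1 were lost without some single libraries. Psph, Mthfd2, Asns, Cth, Slc7a1, Slc7a11 and Slc1a5, 7 members all of amino acid synthesis, folate metabolism or transport, were lower in ATRA cells after co-culture and higher after restimulation. Of these 7, only Asns and Cth kept the co-culture call under every alternative. Another 12 members, among them Atf4, Nupr1, Chac1, Slc3a2 and Slc7a5, were called only after restimulation, with the difference between states also called. Mthfd1l took the reverse course, higher in ATRA cells after co-culture and lower after restimulation, with a difference of -1.66 ± 0.19 (SE, adjusted p = 2.7e-05). Its co-culture call was lost without any 1 CTRL library. Ddit4 was higher after co-culture and not called after restimulation, with a difference of -1.68 ± 0.27 (SE, adjusted p = 0.000313).

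Psat1 and Shmt2 were lower in ATRA cells after co-culture and not called after restimulation, with differences of 0.35 ± 0.13 (SE, adjusted p = 0.048) and 0.86 ± 0.24 (SE, adjusted p = 0.00998). Neither co-culture call stayed under every alternative. The difference of Psat1 was lost with the replicate number as a block (adjusted p = 0.103), with no filter on low counts (0.0508) and without most single libraries (0.0615 to 0.117). For 5 members the difference itself was not called. Vldlr and Stc2 were higher in ATRA cells in both states, with differences of 1.74 ± 0.75 (SE, adjusted p = 0.0745) and 0.59 ± 0.28 (SE, adjusted p = 0.101). That of Stc2 passed with the block (0.0438), without both libraries that stood apart (0.94, adjusted p = 0.000355), without ATRA co-culture replicate 3 (0.0226) and without CTRL co-culture replicate 1 (0.024). That of Vldlr passed in DESeq2 (0.0284), on total counts (0.0496) and without both libraries that stood apart (1.61, adjusted p = 0.0422). Without CTRL restimulated replicate 3 it came to 5.83 (adjusted p = 0.00393), a size set by the model's prior, since no Vldlr count was then left in CTRL restimulated cells. Shmt1, called lower after restimulation and not called after co-culture, had a difference of -1.47 ± 0.60 (SE, adjusted p = 0.0634) that passed in DESeq2 (0.0274) and without ATRA co-culture replicate 3 (-1.91, adjusted p = 2.76e-05), as it did without both libraries that stood apart (-1.74, adjusted p = 6.23e-07). Cebpg (0.10, adjusted p = 0.677) and Phgdh (0.32, adjusted p = 0.0919) complete the 5, and Phgdh passed without both libraries that stood apart (0.00587), CTRL co-culture replicate 1 (0.0202) or CTRL restimulated replicate 2 (0.0494).

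The change from co-culture to restimulation was also taken within each arm, from the same 12 libraries as the comparisons above. State and batch set cannot be told apart in these contrasts, and levels were scaled over both tables. The tables also name some genes differently, with 35556 symbols after restimulation, 13948 after co-culture and 13625 in both. A difference in gene annotation therefore cannot be told apart from state either. In CTRL cells 30 of 33 members were lower after restimulation and none was higher, with Shmt1, Mthfd1l and Slc38a2 not called, against 32.5% of all genes called, 16.6% lower and 15.9% higher. The median log2 change was -1.42, beside 0.02 over all genes. Slc38a2 (-0.32, adjusted p = 0.263) was called lower without both libraries that stood apart (-0.53, adjusted p = 1.67e-05). In ATRA cells 10 members were higher and 14 lower, against 61.3% of all genes called, 29.8% higher and 31.5% lower, and the median was -0.31, beside -0.03 over all genes.

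Setting each arm's own values side by side, Atf4 rose by 0.50 ± 0.09 on the log2 scale in ATRA cells (SE, adjusted p = 0.000372) and fell by 1.504 ± 0.09 in CTRL cells (SE, adjusted p = 3.38e-07). In ATRA cells 6 of 7 transporters rose, among them Slc3a2 by 1.27 ± 0.12 (SE, adjusted p = 2.57e-06) and Slc7a11 by 2.28 ± 0.53 (SE, adjusted p = 0.00298), while in CTRL cells 6 of 7 fell, with Slc3a2 at -0.99 ± 0.12 (SE, adjusted p = 6.41e-05) and Slc7a11 at -5.46 ± 0.69 (SE, adjusted p = 0.000137). The Slc7a11 change in CTRL cells was -6.07 without CTRL restimulated replicate 2 and -4.85 without CTRL restimulated replicate 3. The 6 transcription factors all fell in CTRL cells, the deepest being Nupr1 (-5.12 ± 0.31, SE, adjusted p = 3.65e-07), whereas in ATRA cells Atf4 rose, Ddit3 and Cebpg fell and the other 3 were not called. Nupr1 in ATRA cells was at 0.44 (adjusted p = 0.107), but at 0.78 without ATRA co-culture replicate 3 (adjusted p = 0.000699), 0.77 without both libraries that stood apart (adjusted p = 6.78e-05) and 0.63 on total counts (adjusted p = 0.0184), each of which passed.

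Of the 8 effectors, 6 fell in ATRA cells and all 8 in CTRL cells, beside 31.5% and 16.6% of all genes called lower. Ppp1r15a (-0.18, adjusted p = 0.486) and Chac1 were not called in ATRA cells. The call of Sesn2 in ATRA cells (-0.46, adjusted p = 0.0449) was lost on total counts (adjusted p = 0.223) and without any 1 of 7 single libraries (0.0525 to 0.148). Vldlr fell by 4.92 ± 0.33 in ATRA cells (SE, adjusted p = 2.29e-07) and stood at -6.66 ± 0.51 in CTRL cells (SE, adjusted p = 2.04e-06), where leaving out CTRL restimulated replicate 3, the only one with counts, gave -10.75. Ddit4 fell by 2.24 ± 0.20 in ATRA cells (SE, adjusted p = 1.8e-06) and by 0.55 ± 0.19 in CTRL cells (SE, adjusted p = 0.0446, a call lost without any 1 of 8 libraries at 0.0578 to 0.163). Chac1 in ATRA cells was not called (0.87, adjusted p = 0.0632) but passed in DESeq2 (0.0474), without CTRL co-culture replicate 1 (0.0472), without ATRA co-culture replicate 1 (1.22, adjusted p = 0.0216) and without both libraries that stood apart (0.49, adjusted p = 0.0183). Chac1 fell by 4.15 ± 0.45 in CTRL cells (SE, adjusted p = 3.74e-05). Of the 5 other amino acid enzymes, Cth fell most, by 1.60 ± 0.23 in ATRA cells (SE, adjusted p = 7.18e-05) and by 5.75 ± 0.28 in CTRL cells (SE, adjusted p = 8.39e-08), while Asns rose by 0.52 ± 0.10 in ATRA cells (SE, adjusted p = 0.000967) and fell by 1.29 ± 0.11 in CTRL cells (SE, adjusted p = 2.95e-06).

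**Figure D4:**
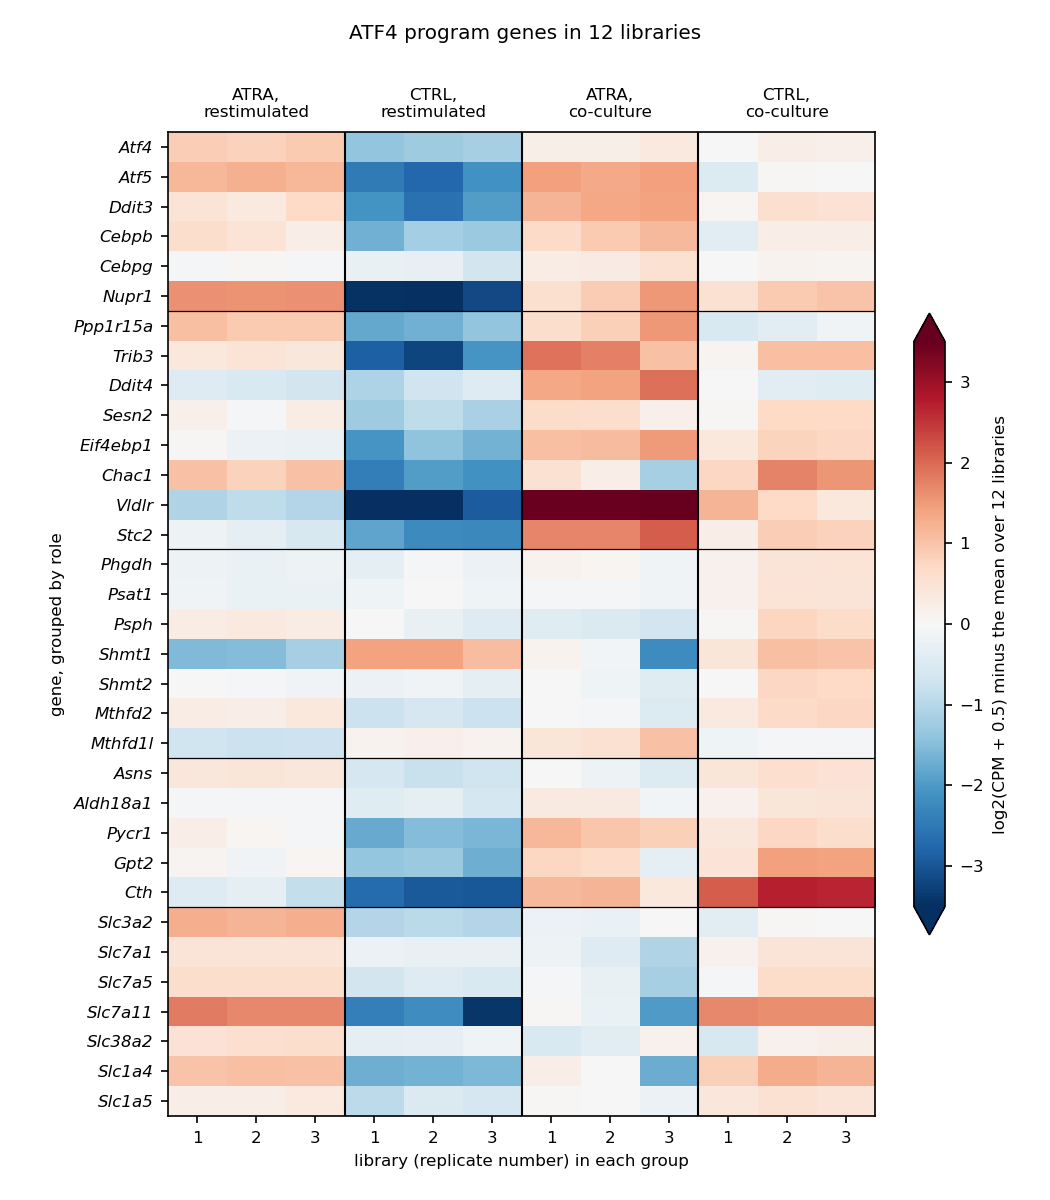
Log2(CPM + 0.5) of each member minus its mean over the 12 libraries (colour), genes in rows by role and libraries in columns by group. CPM were scaled separately in each state, unlike in the state contrasts, so colours of the states are not on a joint scale. The 3 CTRL restimulated libraries lie below the mean (blue) for most members, with Shmt1 and Mthfd1l as exceptions, and the effectors Vldlr, Stc2 and Ddit4 are reddest in ATRA co-culture cells.

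Other genes around the program were counted from fixed lists. After restimulation, 12 of 20 cytosolic aminoacyl-tRNA synthetases, which charge tRNAs and many of which ATF4 raises, were higher in ATRA cells and 4 lower, with a median log2 fold change of 0.34. That is 80.0% called, beside 62.6% of all genes, of which 31.8% were higher. Cars1, the cysteine enzyme, was higher by 1.54 (adjusted p = 1.67e-09) and Aars1, the alanine enzyme, by 1.08 (adjusted p = 6.5e-08). After co-culture 9 synthetases were lower in ATRA cells and 1 was higher, beside 15.5% of all genes lower and 18.1% higher. Among the lower ones was Tars1 (-0.98, adjusted p = 0.0128), and the median of the list was -0.38. By median the synthetases lay above 0 after restimulation and below 0 after co-culture, as did the transporters and the 5 other amino acid enzymes. Only 3 of the 20 entered the fit over all 12 libraries, since the tables name them differently, and the difference was called upward for 2 of them.

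Of 15 genes for eIF2 kinases, eIF2 and its exchange factor eIF2B, 6 were higher and 4 lower after restimulation, with a median of 0.01, and none was higher and 6 lower after co-culture, with a median of -0.21. Eif2ak3, the kinase PERK of the endoplasmic reticulum, was lower in ATRA restimulated cells (-0.79, adjusted p = 1.5e-06), and Eif2s2, a subunit of eIF2, was higher (0.53, adjusted p = 5.45e-06). After co-culture the eIF2 subunit Eif2s1 was lower in ATRA cells (-0.51, adjusted p = 0.0124), as was the eIF2B subunit Eif2b3 (-0.72, adjusted p = 0.0196). After restimulation 66.7% of these 15 genes were called, beside 62.6% of all genes, and the calls were split between the directions. After co-culture 40% of them were called, beside 33.6% of all genes, of which 15.5% were lower. For 7 of the 15 the difference between states was upward and for 1 downward, or 53.3% called, near the 49.2% of all genes. Of 17 genes of the IRE1 and ATF6 arms of the unfolded protein response, 16 were higher and 1 lower after restimulation, with a median of 1.11, beside 31.8% of all genes higher and 30.8% lower. Atf6, the sensor that names one arm, was higher by 2.14 (adjusted p = 1.41e-09) and Syvn1, a ubiquitin ligase of the endoplasmic reticulum, by 1.80 (adjusted p = 1.56e-09). After co-culture 1 of the 17, Ern1, was higher (0.94, adjusted p = 0.0253) and 3 were lower, with a median of -0.17. That is 23.5% called, beside 33.6% of all genes. The difference between states was upward for 13 of the 17 and downward for 1, beside 23.6% of all genes upward and 25.5% downward.

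Of further reported ATF4 targets and neighbouring enzymes, 7 of 11 tested were higher and 2 lower after restimulation (median 0.58), and 4 of 12 were higher and 3 lower after co-culture (median 0.22). These are 81.8% and 58.3% called, beside 62.6% and 33.6% of all genes. For 4 of 12 the difference between states was upward and for 2 downward, with a median of 0.28. That is 50% called, near the 49.2% of all genes. Ero1a, an oxidase of the endoplasmic reticulum that hypoxia also raises, was higher in ATRA cells in both states, by 1.39 after restimulation (adjusted p = 6.59e-09) and by 1.82 after co-culture (adjusted p = 0.002). Mthfd1, the cytosolic folate enzyme, was lower after restimulation (-1.80, adjusted p = 1.43e-08), as were the folate enzymes Shmt1 and Mthfd1l. The folate enzyme Mthfd2, in contrast, was higher and Shmt2 was not called. Jdp2, a basic leucine zipper repressor, was higher after co-culture (4.09, adjusted p = 0.00429). Of further amino acid transporters, 6 of 13 tested were higher and 3 lower after restimulation (median 0.32), or 69.2% called, near the 62.6% of all genes, led by the cationic carrier Slc7a3 (log2 fold change 3.40, adjusted p = 1.02e-09) and the lysosomal arginine sensor Slc38a9 (2.83-fold, adjusted p = 2.75e-08). After co-culture 1 of 12 was higher, Slc43a2 (0.84, adjusted p = 0.00751), and 4 were lower, led by the glutamine carrier Slc38a1 (-0.74, adjusted p = 0.00374), with a median of -0.31 and 41.7% called, beside 33.6% of all genes. For 7 of 13 of these transporters the difference between states was upward and for 2 downward, or 69.2% called, beside 49.2% of all genes.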

How the data were processed

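RNA from 12 libraries in 4 groups was analysed, each placed by its sample title. The authors deposited whole-number counts per gene symbol, 1 table for each state, and TPM after restimulation. The submitters' processing notes name build mm39 and the tools STAR 2.7.11b, Salmon 1.10.3, cutadapt 5.0 and DESeq2 1.42.1. Which tool made which table, and the strand setting, is not given in the sources used here. Every gene of the co-culture table has at least 10 counts in all. The restimulation table repeats 32 symbols, Ddit3 among them, whose second row is 0 throughout; the row with the largest total was kept. TPM columns carry treatment names only, so they served as unnumbered replicates.

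Counts were fitted with edgeR 4.0.16 in R 4.3.3 (TMM, filterByExpr, robust quasi-likelihood F tests, Benjamini-Hochberg adjustment over all tested genes, called at 0.05), after a check on simulated data. ATRA was compared with CTRL within a table. The interaction and the restimulation changes used 12 libraries and the 12364 tested genes found in both tables. Alternatives were total counts or DESeq2 size factors for TMM, DESeq2 1.42.0, no filter, a replicate block, each library left out, the 2 libraries that stood apart left out, and limma 3.58.1 on log2(TPM + 1) or log2(TPM + 0.1) with a mean of at least 1 TPM, or unfiltered. The labels give same-numbered ATRA and CTRL libraries of a state the same batch, so these numbers pair them; deviations from group means correlated at -0.06 to 0.13 after co-culture and -0.10 to 0.04 after restimulation. No libraries were alike within sampling noise (smallest chi-square per degree of freedom 3.83).

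The members and lists were chosen with earlier results of these data known. All members may be named; from other lists, at most 2 called genes of smallest p per list and ATRA comparison are named. A result that the rule would name is not reported here. Promoters are RefSeq's, of build GRCm38.p6, which is not the build of the counts, and serve for sequence only.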

Additional observations from a re-analysis of the deposited data

Results flagged for a closer look

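For 28 members the effect of ATRA differed between the states in the interaction test over 12 libraries (edgeR, adjusted p under 0.05), which over all tested genes called 49.2%. Values are the log2 fold change of ATRA over CTRL after restimulation minus the same after co-culture. Among the transcription factors the difference was 2.00 for Atf4, 2.65 for Atf5, 2.03 for Ddit3, 1.56 for Cebpb and 5.56 for Nupr1. Among the effectors it was 1.24 for Ppp1r15a, 2.58 for Trib3, 1.25 for Sesn2, 0.99 for Eif4ebp1, 5.02 for Chac1 and -1.68 for Ddit4.

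Among the serine, glycine and folate enzymes it was 0.35 for Psat1, 1.57 for Psph, 0.86 for Shmt2, 1.72 for Mthfd2 and -1.66 for Mthfd1l. Among the other enzymes it was 1.81 for Asns, 0.56 for Aldh18a1, 1.46 for Pycr1, 2.28 for Gpt2 and 4.14 for Cth. Among the transporters it was 2.27 for Slc3a2, 1.57 for Slc7a1, 2.04 for Slc7a5, 7.74 for Slc7a11, 1.02 for Slc38a2, 4.25 for Slc1a4 and 1.43 for Slc1a5. Of these 28, the call of Psat1 was lost under at least 1 alternative, and those of the other 27 stayed under all 18 tried. The groups have 3 libraries each, so no library was tested as an outlier of its group.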

How the results depend on the processing

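After restimulation 28 of 29 called members kept their call under all 14 alternatives, Cebpg being the exception, and 27 of 28 did so for the difference under 18. After co-culture 8 of 18 did so under 12. There the 9 lower members became 14 in DESeq2, 18 without both libraries that stood apart and 2 to 11 with single libraries left out, and the 9 higher members became 6 to 10 with single libraries left out. The 4071 genes called there became 7980 without those 2 libraries and 1613 to 5617 with single libraries left out. Since those 2 were picked for lying apart from their groups, the added calls without them are no independent support. Counts in the other comparisons stayed within 1.5 times the main count under every alternative. With the replicate block (the paired fit) members called higher and lower numbered 27 and 2 after restimulation, 9 and 7 after co-culture, and 26 and 2 for the difference; it changed the calls of Psat1 and Shmt2 after co-culture and of Psat1 and Stc2 for the difference, and no other.

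Only values that were not called changed sign. With single libraries left out, values after co-culture ran from -0.11 to 0.41 for Nupr1 (-0.11 without ATRA replicate 3), from -0.20 to 0.12 for Sesn2 (0.12 without ATRA replicate 3) and from -0.15 to 0.037 for Slc3a2. Nupr1 was at -0.23 without both libraries that stood apart and Sesn2 at 0.0040 with the block. After restimulation Phgdh ran from -0.087 to 0.048 with single libraries left out and was at 0.025 on every TPM scale. The difference of Cebpg ran from -0.019 to 0.20. The restimulation change in ATRA cells ran from -0.37 to 0.16 for Ppp1r15a (0.0077 on total counts, 0.15 without the 2 libraries) and from -0.054 to 0.18 for Shmt2 (-0.058 without the 2 libraries). The cause was not tested. On total counts the median gene's change in ATRA cells shifted by 0.16, and 4 lower calls there were lost, those of Aldh18a1, Phgdh, Sesn2 and Shmt1. In that contrast 19 of 24 calls stayed under all 17 alternatives. Besides total counts, the calls of those 4 members were also lost with single libraries left out, at adjusted p values of up to 0.0972 for Aldh18a1, 0.0589 for Phgdh, 0.148 for Sesn2 and 0.226 for Shmt1, as was the higher call of Mthfd2, at up to 0.132. On log2(TPM + 1) the values after restimulation were 3.65 for Atf5, 4.63 for Nupr1, 2.76 for Chac1, 2.99 for Slc7a11 and, unfiltered, 0.77 for Vldlr, since the added 1 shrinks low genes; on log2(TPM + 0.1) Ppp1r15a was at 3.26. Depth limits Vldlr and Slc7a11 in CTRL restimulated cells, which had 0 to 5 and 0 to 11 counts per library.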
